A study of Mus musculus with 20 samples.

Results

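Ovaries of control mice were compared between embryonic day 18.5 (E18.5), shortly before birth, and postnatal day 0 (P0), the day of birth. The samples were the control libraries of a Figla knockout experiment, chosen by the library name that each count table carries: 4 libraries at E18.5 and 3 at P0, 7 of the 20 libraries of the series. E18.5 replicates 1 and 2 had nearly the same counts and were summed to 1 sample, called replicate 1-2, which left 3 samples of each age and 6 in all. The study used whole ovaries of B6D2F1 mice to find genes that depend on FIGLA. The change with age in the controls is set beside that of the knockouts further below.

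The labels do not agree on which libraries were controls. For E18.5 replicate 1-2 and P0 replicates 1 and 2, the title, the genotype field (Figla+/-) and the library name all gave a control. For E18.5 replicates 3 and 4 and P0 replicate 3 the library name gave a control, while the title gave a knockout and the genotype field gave Figla-/-. The targeted gene was therefore read in each sample first. Figla, on chromosome 6 from 86016171 to 86020996 on the plus strand of GRCm38, was counted at 22.4, 3.63 and 26.4 CPM (counts scaled to a common library size, with the trimmed mean of M values as scaling factor) in E18.5 replicates 1-2, 3 and 4. It was counted at 32.6, 37.1 and 41.9 CPM in P0 replicates 1, 2 and 3. The knockouts, grouped by library name in the same way, ranged from 0.183 to 1.5 CPM, below every control value given here. Knockout CPM were scaled over all Figla samples together, and control CPM over the control samples alone. E18.5 replicate 3 was the lowest of the controls, and the text says where a call is lost without it.

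Around birth the mouse ovary changes from clusters of germ cells into primordial follicles, in which 1 oocyte is enclosed by a single layer of flattened pregranulosa cells. The germ cells of the cluster pass through the stages of meiotic prophase, and many are lost, while those that remain arrest at the diplotene stage. Transcription factors of the oocyte (FIGLA, NOBOX, LHX8, SOHLH1 and SOHLH2) then support genes that the egg will need much later, among them those of the zona pellucida, its extracellular coat, and those whose products act in the early embryo. In RNA of whole ovaries, a lower level of a gene can come from fewer cells of a type or from less RNA per cell, and these cannot be told apart.

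Of 17450 genes tested, edgeR's quasi-likelihood test called 0 at a Benjamini-Hochberg adjusted p under 0.05, with a smallest adjusted p of 0.143. At an unadjusted p under 0.05 it passed 3463 genes (19.8%), 1866 higher at P0 (10.7%) and 1597 lower (9.15%). With libraries scaled by total count alone these became 1243 higher and 2296 lower, and the median log2 fold change of all genes moved from -0.01 to -0.10. DESeq2, the alternative test on the same counts, gave 465 genes higher at P0 (3.02% of the 15395 genes to which it gave an adjusted p) and 395 lower (2.57%). All 3 P0 samples lay above all 3 E18.5 samples for 2715 genes (15.6%) and below them for 2117 genes (12.1%). The text below therefore gives the level in each sample, says whether the ages overlapped, and names DESeq2 wherever a gene is said to have passed a test.

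The DESeq2 counts rested in part on single samples. Without P0 replicate 3 only 26 genes were higher (0.168%) and 110 lower (0.712%), and without P0 replicate 1 they were 164 and 153. Without E18.5 replicate 3 there were 254 higher (1.8%) and 212 lower (1.5%), and without E18.5 replicate 1-2 there were 557 higher (4.68%) and 521 lower (4.37%). Without P0 replicate 2 the numbers were 269 and 367, and without E18.5 replicate 4 they were 700 and 307. Of the 59 genes named below that passed DESeq2 with all samples, 16 still passed without P0 replicate 3, 33 without P0 replicate 1, 47 without P0 replicate 2, 41 without E18.5 replicate 1-2, 42 without E18.5 replicate 3 and 55 without E18.5 replicate 4. Passing whichever sample was left out were 14 of them: Tia1, Rbm5, Rsrp1, Dusp11, Tra2a, Pnisr, Srek1, Cyc1, Grb10, Plk2, Sox11, Wee2, Rpph1 and Rn7sk. Grb10 and Wee2 were named by their p-values in these same samples, and the others were chosen after their values were seen. Their passing was therefore favoured by the choice and is no independent check. The share over all genes was not counted. The limma fit with sample quality weights and the edgeR fit with a robust prior, both chosen after the data were seen, called 0 genes, and passed 1754 higher and 1695 lower, and 1857 higher and 1598 lower, at an unadjusted p under 0.05.

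**Figure D1:**
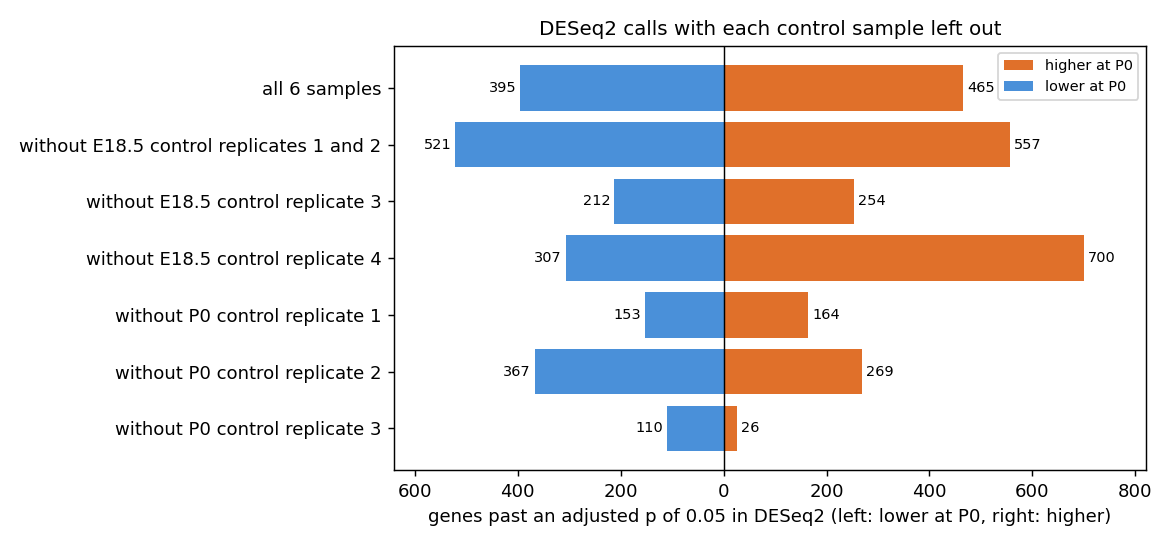
Number of genes past an adjusted p of 0.05 in DESeq2, with bars to the right for genes higher at P0 and to the left for genes lower at P0, for all 6 control samples and with each sample left out. The count of higher genes was smallest, 26, without P0 replicate 3 and largest, 700, without E18.5 replicate 4.

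Depth and composition moved with age. The E18.5 libraries held 5583392 to 8955113 counts each and the P0 libraries 10935816 to 13408022. Mitochondrial genes took 1.66% to 2.00% of counts at E18.5 and 2.09% to 3.31% at P0, and CT010467.1 took 0.961% to 2.42% and 2.50% to 3.97%. None of these ranges overlapped between ages, although the summed E18.5 replicate 1-2, with 17215630 counts, was deeper than every P0 sample. Their part in the results was not tested. Nothing in the labels ties a sample to an animal or litter of its own, and the p-values therefore measure how far these samples spread, a spread that may be technical.

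The transcription factors of the oocyte were higher at P0 in all samples. All 8 listed genes had enough counts to test, all 8 had every P0 sample above every E18.5 sample, and their median log2 fold change was 1.15, against -0.01 over all genes. Over all genes, 15.6% were higher in every P0 sample. Nobox, a homeobox factor needed for early follicle growth, was at 75.8, 1.98 and 107 CPM in E18.5 replicates 1-2, 3 and 4 and at 151, 170 and 183 CPM in the P0 replicates. Lhx8, a LIM homeobox factor, was at 96.7, 5.94 and 117 CPM and then at 161, 150 and 208 CPM. Sohlh1, a basic helix-loop-helix factor of germ cells, was at 78.5, 5.78 and 102 CPM and then at 139, 166 and 206 CPM. In each of these the P0 samples lay close together, E18.5 replicates 1-2 and 4 lay below them, and E18.5 replicate 3 lay far under all others.

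That single low sample set the spread. With it, the log2 fold change was 1.44 for Nobox (SE 0.82), 1.24 for Lhx8 (SE 0.71), 1.44 for Sohlh1 (SE 0.69) and 1.07 for Figla (SE 0.50), and DESeq2 gave adjusted p-values of 0.514, 0.5, 0.401 and 0.401. Without it, the fold changes were smaller, at 0.89, 0.71, 0.92 and 0.62, and the DESeq2 adjusted p-values were 0.00669, 0.0355, 0.00821 and 0.0851. Sohlh2, the partner of SOHLH1, depended on that sample less. It was at 34.3, 21 and 35.3 CPM at E18.5 and 59.3, 55.3 and 76.1 CPM at P0, a log2 fold change of 1.06 (SE 0.21), which passed DESeq2 with all samples (adjusted p = 0.00179) and without E18.5 replicate 3 (0.00669) and missed it without P0 replicate 3 (0.0579). DESeq2 passed 1 of the 8 genes with all samples, 4 without E18.5 replicate 3 and 0 without P0 replicate 3. Of all genes given an adjusted p, 3.02%, 1.8% and 0.168% passed as higher in those fits. The other 3 members of the list showed smaller or less certain differences. Foxo3, which holds primordial follicles dormant, had a log2 fold change of 0.63, Taf4b, a subunit of general transcription factor TFIID, one of 0.29, and Tbpl2, an oocyte paralogue of the TATA-binding protein, one of 2.13 at levels of at most 5.69 CPM.

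Genes of the egg coat and of secreted proteins had larger differences from lower levels. Of 11 listed, 7 had enough counts to test, with a median log2 fold change of 2.36 (1.96 without E18.5 replicate 3), and 6 of these 7 did not overlap. Among all genes, 15.6% were higher in every P0 sample and 3.02% passed DESeq2 as higher. Zp1, Zp2 and Zp3 encode the glycoproteins of the zona pellucida. Zp2 was at 14.7, 0 and 41.9 CPM at E18.5 and at 64.7, 77.2 and 152 CPM at P0. Zp3 was at 1.46, 0.165 and 8.67 CPM and then at 9.78, 20.7 and 52.1 CPM, and Zp1 at 0.878, 0 and 4.46 CPM and then at 9.11, 12.9 and 27.5 CPM. In all 3 the samples kept the same order, from E18.5 replicate 3 through replicate 1-2 and replicate 4 to P0 replicates 1, 2 and 3. A count of 0 in E18.5 replicate 3 allows up to 0.495 CPM (3 counts).

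Their fold changes were 3.21 for Zp1 (log2, SE 0.85), 2.36 for Zp2 (SE 0.92) and 3.00 for Zp3 (SE 0.93), and DESeq2 passed none of the 3 (adjusted p = 0.167, 0.463 and 0.177). Gdf9, a growth factor that the oocyte secretes to its follicle, did pass. It was at 3.28, 1.32 and 5.2 CPM at E18.5 and at 8.86, 14.4 and 25.1 CPM at P0, a log2 fold change of 2.26 (SE 0.49; DESeq2 adjusted p = 0.000608, 0.00392 without E18.5 replicate 3 and 0.0579 without P0 replicate 3). Astl, which encodes the protease that cleaves ZP2 after fertilization, was the other gene of this list to pass DESeq2 (adjusted p = 0.00298, 0.0132 without E18.5 replicate 3 and 0.205 without P0 replicate 3), from 0.117, 0 and 1.36 CPM to 2.45, 5.16 and 9.89 CPM.

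Because these genes were higher together, and because FIGLA, SOHLH1 and SOHLH2 belong to a class of factors that bind the E-box CANNTG, promoter sequence from RefSeq (GRCm38.p6) is shown for 5 of them. Each is the 250 bases before the annotated start, on the gene's strand, with the E-box form CAGGTG, or CACCTG where it lies on the other strand, in capitals. They lie at chr6:86016941-86017190, plus strand (Figla), chr6:43309555-43309804, minus strand (Nobox), chr5:135979855-135980104, plus strand (Zp3), chr2:127341386-127341635, plus strand (Astl, the second of 2 starts in the table) and chr6:40442613-40442862, plus strand (Wee2).
Figla: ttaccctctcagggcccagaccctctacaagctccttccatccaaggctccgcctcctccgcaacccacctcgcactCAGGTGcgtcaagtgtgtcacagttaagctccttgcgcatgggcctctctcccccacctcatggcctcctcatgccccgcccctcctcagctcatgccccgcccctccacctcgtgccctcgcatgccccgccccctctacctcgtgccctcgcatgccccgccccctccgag
Nobox: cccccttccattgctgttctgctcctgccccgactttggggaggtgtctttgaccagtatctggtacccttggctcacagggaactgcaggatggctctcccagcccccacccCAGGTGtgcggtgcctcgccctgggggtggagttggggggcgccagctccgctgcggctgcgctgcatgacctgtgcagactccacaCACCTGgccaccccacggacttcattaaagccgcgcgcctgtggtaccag
Zp3: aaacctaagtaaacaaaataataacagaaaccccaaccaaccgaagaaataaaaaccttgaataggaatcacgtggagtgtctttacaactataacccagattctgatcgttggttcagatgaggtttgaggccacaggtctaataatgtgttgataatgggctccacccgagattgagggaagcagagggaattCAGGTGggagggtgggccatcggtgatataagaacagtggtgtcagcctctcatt
Astl: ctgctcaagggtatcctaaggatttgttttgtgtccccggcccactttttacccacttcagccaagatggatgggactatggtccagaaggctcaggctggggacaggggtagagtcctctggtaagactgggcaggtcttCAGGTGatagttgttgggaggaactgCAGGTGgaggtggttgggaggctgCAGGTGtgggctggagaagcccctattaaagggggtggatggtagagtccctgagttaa
Wee2: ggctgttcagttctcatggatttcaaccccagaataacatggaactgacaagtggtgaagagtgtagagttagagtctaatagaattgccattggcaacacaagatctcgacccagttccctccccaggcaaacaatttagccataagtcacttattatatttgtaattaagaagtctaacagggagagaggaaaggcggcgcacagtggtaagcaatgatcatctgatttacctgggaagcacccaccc
The Astl window held 3 matches to CAGGTG, Nobox 2, Zp3 and Figla 1 each, and Wee2 none. Other forms of CANNTG, such as CACGTG in the Zp3 window, stand in small letters. The window before the other Astl start, at chr2:127338389-127338638 on the plus strand, held 0 matches. Over the oocyte transcription factors, the egg coat and secreted factors and the maternal effect genes, 27 genes had an entry in the table, and 15 of them (55.6%) held CAGGTG in at least 1 such window, as did 5252 of all 27025 genes (19.4%). The general form CANNTG stood in 24 of the 27 (88.9%) and in 69.3% of all genes. CAGGTG was singled out after the windows were seen. The other 9 forms of CANNTG stood in 0% to 25.9% of the 27 and in 3.98% to 16.3% of all genes, with CAGATG and the palindrome CAGCTG the most frequent among the 27. A match in a window describes its letters and is not a site of binding. The window of Figla lies within the longer gene model of the count tables. Zp1, Zp2 and Gdf9 had no entry.

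Maternal effect genes, whose products the egg stores for the embryo, followed the same course. Of 20 listed, 16 had enough counts to test, all 16 had a positive fold change with a median of 2.13 (1.57 without E18.5 replicate 3, 1.50 without P0 replicate 3), and 12 of the 16 did not overlap. Over all genes, 15.6% were higher in every P0 sample. Wee2, a kinase that keeps the oocyte in prophase arrest, was at 2.17, 0.165 and 1.98 CPM at E18.5 and at 8.35, 8.79 and 13.2 CPM at P0. Its log2 fold change of 2.69 (SE 0.54) passed DESeq2 with all samples (adjusted p = 5.4e-05), without E18.5 replicate 3 (6.34e-06) and without P0 replicate 3 (0.0189). Zbed3 and Ooep belong with Nlrp5 and Padi6 to the subcortical maternal complex, a protein assembly under the membrane of the egg. Zbed3 was at 66.2, 52.7 and 107 CPM and then at 138, 145 and 179 CPM (log2 fold change 1.02, SE 0.24), and Ooep was at 4.04, 1.32 and 5.94 CPM and then at 8.77, 12.3 and 34.2 CPM. Both passed DESeq2 (adjusted p = 0.00694 and 0.00341), and without E18.5 replicate 3 as well (0.034 and 0.0198), but not without P0 replicate 3 (0.134 and 0.196), and Ooep not without E18.5 replicate 1-2 (0.12).

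The other members of that complex were spread over a wide range. Nlrp5 was at 44, 0.165 and 130 CPM at E18.5 and at 98.9, 164 and 527 CPM at P0, so that the ages overlapped. Padi6 was at 6.44, 0.495 and 46.1 CPM and then at 49.7, 112 and 241 CPM. In both genes P0 replicate 3 was the highest and E18.5 replicate 3 the lowest sample. Dppa3, which protects the maternal genome from demethylation in the zygote, and Tcl1 had log2 fold changes of 2.10 and 1.77, and passed DESeq2 only without E18.5 replicate 3 (adjusted p = 0.00144 and 0.00755, against 0.368 and 0.416 with it). In all, DESeq2 passed 4 of the 16 with all samples, 6 without E18.5 replicate 3 and 1 without P0 replicate 3. Of all genes given an adjusted p, 3.02%, 1.8% and 0.168% passed as higher in those fits. Counts of Nlrp14 and Nlrp4f (log2 fold changes 3.45 and 2.36) are uncertain, since their family has near-identical copies.

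**Figure D2:**
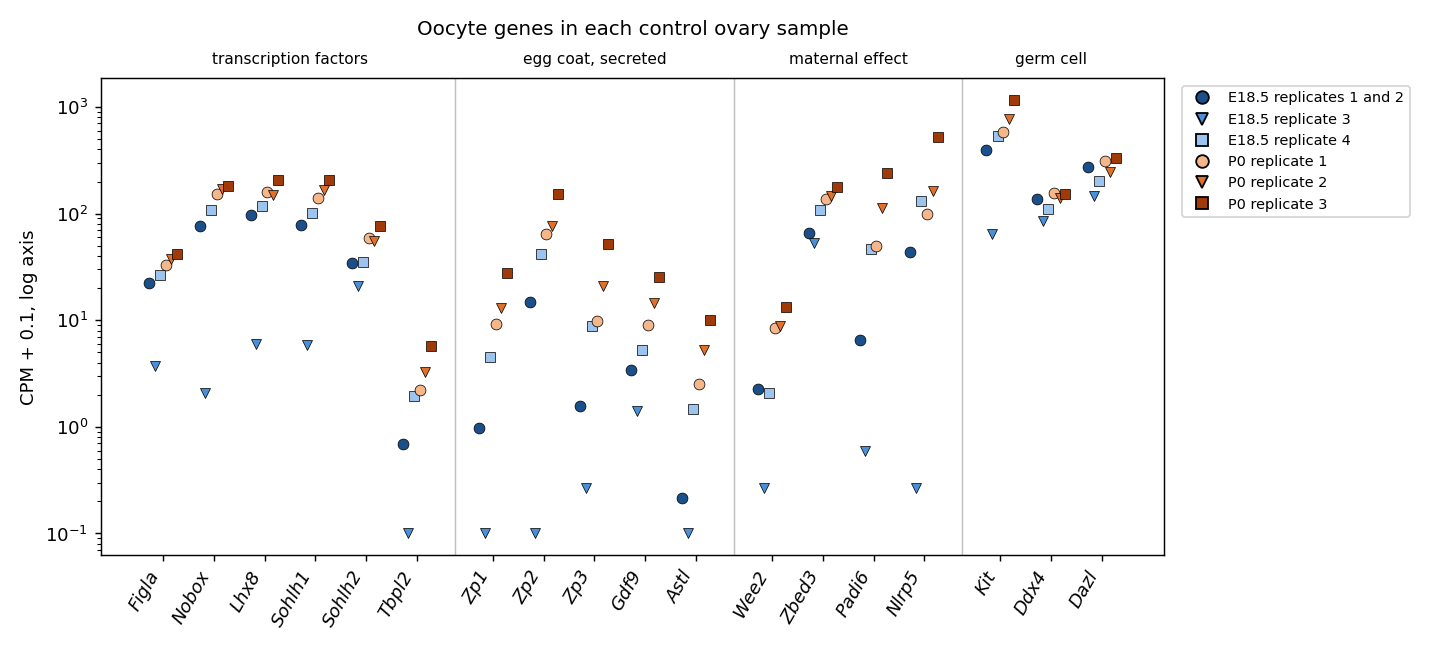
CPM plus 0.1 on a log axis for oocyte and germ cell genes, with 1 point for each of the 3 E18.5 samples (blue) and 3 P0 samples (orange). E18.5 replicate 3 (blue triangle) was the lowest sample for each gene shown, and its distance to the other samples was large for Nobox (1.98 CPM) and small for Ddx4 (85.2 CPM).

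Ddx4, an RNA helicase of all germ cells, was at 137, 85.2 and 111 CPM at E18.5 and 155, 141 and 153 CPM at P0 (log2 fold change 0.42, SE 0.16). Dazl, a translation factor of germ cells, was at 272, 145 and 201 CPM and then at 313, 243 and 333 CPM, so that the ages overlapped (0.52, SE 0.21). DESeq2 passed neither (adjusted p = 0.169 and 0.166). In E18.5 replicate 3 both were the lowest of the 6 samples but remained well counted, whereas Nobox, Lhx8 and Sohlh1 fell under 6 CPM there. The list of oocyte RNA-binding factors, to which Ddx4 and Dazl belong, had a median of 0.59 over 13 tested of 15. DESeq2 passed 3, against 3.02% of all genes as higher: Elavl2, Lsm14b and Rbpms2 (adjusted p = 0.00694, 0.0151 and 0.0155). All 3 still passed without E18.5 replicate 3, none did without P0 replicate 3 (0.189, 0.237 and 0.156), and of the 3 only Rbpms2 did without E18.5 replicate 1-2 (0.0272).

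Kit, the receptor through which follicle cells support the oocyte, was at 398, 63.9 and 529 CPM at E18.5 and at 586, 776 and 1160 CPM at P0. All P0 samples were above all E18.5 samples, with a log2 fold change of 1.35 (SE 0.60) and a DESeq2 adjusted p of 0.333. Gja4, the gap junction protein connexin 37 of the oocyte, was at 19.6, 7.1 and 24.5 CPM and then at 31.1, 41.1 and 39.8 CPM, and passed DESeq2 (adjusted p = 0.0327, 0.0362 without E18.5 replicate 3 and 0.269 without P0 replicate 3). Cd9, a membrane protein that the egg needs to fuse with sperm, had a log2 fold change of 0.68 (DESeq2 adjusted p = 0.143). Over the 14 genes of oocyte surface and growth signalling the median was 0.19, and Gja4 was the 1 that passed, against 3.02% of all genes as higher.

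Genes of the piRNA pathway, which silences transposons in germ cells, had a median log2 fold change of 0.59 (0.35 without E18.5 replicate 3) over 20 genes, 19 of them positive. Of these, 10 were higher in every P0 sample, against 15.6% of all genes. DESeq2 passed 4, against 3.02% of all genes as higher: Tdrd5, Fkbp6, Exd1 and Pld6 (adjusted p = 0.00748, 0.0144, 0.0146 and 0.0156). DESeq2 passed 0 of the 20 without P0 replicate 3. Exd1 also missed without E18.5 replicate 3 (0.0548) and Tdrd5 without E18.5 replicate 1-2 (0.123). Gtsf1, a partner of PIWI proteins, was at 10.8, 2.31 and 19.7 CPM at E18.5 and at 36.5, 39.7 and 67.5 CPM at P0. Tdrd1, a tudor-domain scaffold protein, was at 247, 27.1 and 333 CPM and then at 477, 506 and 732 CPM. Gtsf1, Tdrd1 and Piwil2 passed DESeq2 without E18.5 replicate 3 (adjusted p = 0.000952, 0.00819 and 0.00958) but not with it (0.0874, 0.331 and 0.298).

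A few genes best known from pluripotent cells, which germ cells also use, were higher at P0 as well. Of 13 listed, 7 had enough counts to test. Sall4, a zinc finger factor, was at 2.05, 3.63 and 5.45 CPM at E18.5 and at 9.02, 11.6 and 16.3 CPM at P0, and passed DESeq2 (log2 fold change 1.74, adjusted p = 0.00381, 0.0109 without E18.5 replicate 3 and 0.124 without P0 replicate 3). Lin28a, which blocks let-7 maturation, was at 2.99, 1.65 and 5.2 CPM and then at 7.17, 12.9 and 32.2 CPM (DESeq2 adjusted p = 0.00151, and 0.148, 0.0968 and 0.122 without E18.5 replicate 3, E18.5 replicate 1-2 and P0 replicate 3). Pou5f1, which encodes OCT4, was at 0.586, 0.165 and 3.1 CPM and then at 5.14, 8.59 and 17.3 CPM. As in the egg coat genes, P0 replicate 3 was the highest sample for all 3.

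Genes of early meiosis showed the opposite side of E18.5 replicate 3. Dmc1, the recombinase that pairs homologous chromosomes, was at 11.3, 41.4 and 9.54 CPM at E18.5 and 11.1, 5.73 and 4.43 CPM at P0. Prdm9, the histone methyltransferase that sets recombination hotspots, was at 15.4, 62.2 and 16.1 CPM and then at 17.9, 13 and 14 CPM. Msh5, a crossover factor, was at 10.5, 47.9 and 7.68 CPM and then at 10, 8.12 and 7.36 CPM. In each gene E18.5 replicate 3 stood far above the other 5 samples, which overlapped between the ages. Meioc, which holds germ cells in the meiotic programme, was likewise highest there at 126 CPM, with 16.5 to 59.8 CPM in the other samples. Stra8, the retinoic acid target that starts meiosis, was at 6.44 CPM there and at most 0.191 CPM elsewhere, too low in 5 samples to be tested.

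The fold changes of these genes came from that sample. For Dmc1 the log2 fold change was -1.56 with it and -0.54 without it, for Prdm9 -1.08 and -0.06, for Msh5 -1.39 and -0.09, and for Meioc -1.01 and 0.06. The list of meiotic entry and break formation had a median of -0.20 over 16 tested of 18, and 0.02 without E18.5 replicate 3. The list of crossover and meiotic telomere genes had -0.12 over 14, and 0.05 without it. DESeq2 passed 0 genes of both lists. Genes of the synaptonemal complex, which holds homologues together, had a median of 0.16 over 14. Its central element genes Syce1 and Syce2 were higher in every P0 sample, at 47.5 to 65.2 CPM and 54.2 to 65.5 CPM against 28.6 to 40.4 CPM and 30.9 to 42.5 CPM, and passed DESeq2 (adjusted p = 0.0291 and 0.0309) but not without E18.5 replicate 3 (0.107 and 0.0987) or P0 replicate 3 (0.266 and 0.257).

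**Figure D3:**
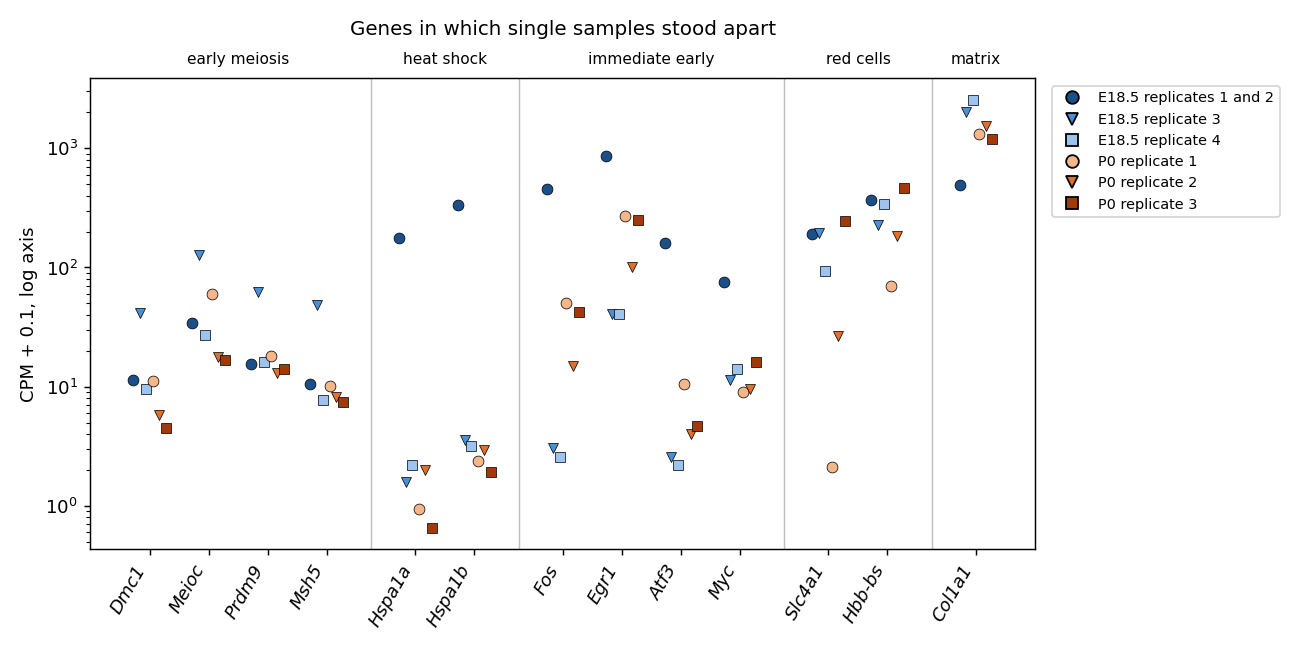
CPM plus 0.1 on a log axis for genes of early meiosis, stress, red cells and matrix, with 1 point per control sample. E18.5 replicate 3 was the highest sample for Dmc1, Meioc, Prdm9 and Msh5, E18.5 replicate 1-2 for Hspa1a, Hspa1b, Fos, Egr1, Atf3 and Myc, and P0 replicates ran from 2.02 to 243 CPM for Slc4a1.

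Among the controls, another sample stood apart in genes of acute stress. Hspa1a and Hspa1b, which encode inducible HSP70, were at 178 and 334 CPM in E18.5 replicate 1-2 and at no more than 2.11 and 3.47 CPM in the other 5 samples. These 2 genes are near-identical copies, so the split of reads between them is uncertain. Fos was at 458 CPM in that sample, at 2.97 and 2.48 CPM in the other E18.5 samples and at 50.4, 14.9 and 42 CPM at P0. Egr1 was at 862, 40.3 and 40.4 CPM at E18.5 and at 272, 100 and 248 CPM at P0. So the P0 samples lay below 1 E18.5 sample and above the other 2, and without E18.5 replicate 1-2 both genes passed DESeq2 as higher at P0 (log2 fold changes 3.68 and 2.31, adjusted p = 4.62e-09 and 0.00302). With it the log2 fold changes were -2.08 and -0.58. The E18.5 knockout sample of the same number, summed in the same way, was also high, at 408 CPM for Hspa1a and 958 CPM for Fos. Knockout E18.5 replicates 3 and 4 were at 1.98 and 1.37 CPM for Hspa1a and at 1.98 and 3.69 CPM for Fos.

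The lists repeated this pattern of the controls. Immediate early genes had a median log2 fold change of -1.44 over 21 genes, and 0 of the 21 had groups that did not overlap. Heat shock and stress response genes had -0.79 over 12, with 1 of the 12, Hspa1b, lower in every P0 sample. Without E18.5 replicate 3 the medians were -1.94 and -1.07. Summed over the list, immediate early genes came to 3680 CPM in E18.5 replicate 1-2, to 238 and 287 CPM in the other E18.5 samples and to 447 to 799 CPM at P0. DESeq2 passed 8 immediate early and 2 heat shock genes as higher at P0 without replicate 1-2, against 4.68% of all genes given an adjusted p. With all samples it passed 0 of either, and gave no adjusted p to 11 and 2 of them. Without E18.5 replicate 3 it passed Hspa1a and Hspa1b as lower (adjusted p = 0.019 and 0.0198), against 1.5% of all genes. Glucocorticoid response genes, with a median of -0.66 over 12, were also highest in E18.5 replicate 1-2, at a sum of 1200 CPM against 604 to 933 CPM.

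Somatic cells of the ovary showed small differences. Granulosa markers had a median log2 fold change of -0.02 over 18 tested of 19. Foxl2, the factor that maintains granulosa identity, was at 69.3, 85.7 and 163 CPM at E18.5 and 129, 152 and 118 CPM at P0, overlapping widely. Kitl, which encodes the ligand of KIT, was at 719, 732 and 588 CPM and then at 411, 549 and 430 CPM. All P0 samples of Kitl lay below all E18.5 samples, and it passed DESeq2 (log2 fold change -0.57, SE 0.17, adjusted p = 0.0336) but not without E18.5 replicate 3 (0.136) or P0 replicate 3 (0.276). Bmp2 was the other granulosa marker to pass (adjusted p = 0.0446 in DESeq2), with 65.1, 33.2 and 22.8 CPM and then 19.5, 24.6 and 13.8 CPM, so that E18.5 replicate 4 lay among the P0 samples. Its DESeq2 adjusted p was 0.0735 without E18.5 replicate 3, 0.22 without E18.5 replicate 1-2 and 0.351 without P0 replicate 3. Fst, which binds activin, was lower in every P0 sample (-0.63) and Inha, an inhibin subunit, higher in every one (0.46), and neither passed DESeq2 (adjusted p = 0.088 and 0.161).

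Single stromal and muscle genes were lower at P0. Pdgfra, a receptor of mesenchymal cells, was at 214, 343 and 231 CPM at E18.5 and at 136, 153 and 138 CPM at P0. Its log2 fold change was -0.91 (SE 0.21), which passed DESeq2 with all samples (adjusted p = 0.00545) and without E18.5 replicate 3 (0.00821). Myh11, a myosin of smooth muscle, was at 45, 43.8 and 44.1 CPM and then at 24.6, 29.7 and 25 CPM (-0.76, SE 0.14, adjusted p = 0.00317 in DESeq2 and 0.014 without E18.5 replicate 3). Tgfb2, a growth factor of the TGF-beta family, was at 69.8, 76.3 and 81.5 CPM and then at 41.7, 52.3 and 39.6 CPM (-0.78, SE 0.16, adjusted p = 0.00383 and 0.0208). In Myh11 and Tgfb2 the samples of each age lay close together, while Pdgfra was higher in E18.5 replicate 3 than in the other E18.5 samples. Without P0 replicate 3 the DESeq2 adjusted p-values of Pdgfra, Myh11 and Tgfb2 were 0.0914, 0.0509 and 0.0748.

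The lists around them had medians of -0.33 for stromal markers (13 genes, 1 passing DESeq2), -0.25 for smooth muscle (7 tested of 8, 1 passing) and -0.16 for collagens and matrix (25 genes, 1 passing, Fn1, with a DESeq2 adjusted p of 0.0292, 0.136 without E18.5 replicate 3 and 0.274 without P0 replicate 3). Lower in every P0 sample were 2 of the 13 stromal, 1 of the 7 smooth muscle and 3 of the 25 matrix genes, against 12.1% of all genes. DESeq2 gave 2.57% of all genes as lower. Nr2f2, a factor of stromal cells, was at 108, 161 and 153 CPM at E18.5 and at 94.1, 123 and 99.3 CPM at P0, with overlap. Col1a1, the collagen gene of bone and connective tissue, was at 489, 2010 and 2550 CPM and then at 1310, 1540 and 1190 CPM. The low value was that of E18.5 replicate 1-2, and without it Col1a1 passed DESeq2 as lower at P0 (adjusted p = 0.0009). Without that sample 4 stromal and 4 matrix genes passed as lower, against 4.37% of all genes given an adjusted p.

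Endothelial markers had a median of -0.43 over 11, with 10 negative, 4 lower in every P0 sample and Plvap, a protein of fenestrated capillaries, passing DESeq2 (adjusted p = 0.049, and 0.154, 0.116 and 0.337 without E18.5 replicate 3, E18.5 replicate 1-2 and P0 replicate 3). Among all genes 12.1% were lower in every P0 sample and 2.57% passed DESeq2 as lower. Flt1, a VEGF receptor, was at 33.4, 33.4 and 39.9 CPM at E18.5 and at 14.1, 29.9 and 12.8 CPM at P0. Macrophage markers had -0.35 over 12 tested of 13, with 11 negative and 0 passing, and Ptprc, the leukocyte protein CD45, was at 3.8 to 5.82 CPM and then at 1.77 to 3.4 CPM. Red cell genes varied most among the P0 samples. Slc4a1, the anion exchanger of red cells, was at 190, 194 and 94 CPM at E18.5 and at 2.02, 26.4 and 243 CPM at P0, and the summed red cell markers at 808 to 1130 CPM and then at 162, 423 and 1290 CPM. Their median was -0.72 over 11 tested of 15, and 0 passed DESeq2 with all samples. Without P0 replicate 3 the median was -1.77 and 5 passed as lower, against 0.712% of all genes. How much of any gene's difference came with these cells was not tested.

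Imprinted genes that act on fetal growth had lower mean levels at P0. All 15 tested of 16 had a negative fold change, with a median of -0.47 (-0.30 without E18.5 replicate 3), 6 were lower in every P0 sample and 5 passed DESeq2. For all genes the last 2 shares were 12.1% and 2.57%. Grb10, a brake on insulin and growth factor receptors that lies on chromosome 11, was at 404, 489 and 394 CPM at E18.5 and at 207, 273 and 205 CPM at P0. Its log2 fold change of -0.93 (SE 0.17) passed DESeq2 with all samples (adjusted p = 0.000608), without E18.5 replicate 3 (0.00508) and without P0 replicate 3 (0.0215). Magel2, a gene of the Prader-Willi region, was at 6.68, 7.1 and 6.19 CPM and then at 1.94, 2.77 and 1.58 CPM (-1.68, SE 0.31, DESeq2 adjusted p = 0.00196, and 0.0142 and 0.0377 without those samples). Meg3, a non-coding RNA, was at 497, 493 and 704 CPM and then at 361, 257 and 197 CPM, and Plagl1, a zinc finger factor, at 266, 224 and 301 CPM and then at 183, 176 and 166 CPM. Both passed DESeq2 with all samples (adjusted p = 0.00255 and 0.00934) and without E18.5 replicate 3 (0.00756 and 0.00508), and missed without P0 replicate 3 (0.0531 and 0.122). Of the list, 2 genes passed as lower without P0 replicate 3, against 0.712% of all genes.

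The most abundant members of that list did not separate the ages. H19 was at 2660, 3490 and 2440 CPM at E18.5 and at 2550, 2790 and 1950 CPM at P0, and Igf2, the fetal growth factor, at 1050, 2070 and 1380 CPM and then at 1160, 1300 and 840 CPM. Both overlapped. Cdkn1c, a cell cycle inhibitor, passed DESeq2 (adjusted p = 0.044) with 287, 361 and 150 CPM and then 159, 164 and 98.1 CPM, although E18.5 replicate 4 lay among the P0 samples, and it missed without E18.5 replicate 3 (0.272), E18.5 replicate 1-2 (0.251) or P0 replicate 3 (0.358). Of receptors for hormones and growth factors, Ghr and Prlr, for growth hormone and prolactin, were lower in every P0 sample. Ghr was at 67.1 to 80.2 CPM and then at 46.8 to 53.1 CPM, and Prlr at 25.1 to 34.7 CPM and then at 14.9 to 21.4 CPM (DESeq2 adjusted p = 0.0169 and 0.0235, 0.0626 and 0.112 without E18.5 replicate 3, and 0.174 and 0.233 without P0 replicate 3). The receptor list had a median of -0.24 over 10 tested of 11.

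Genes of glycolysis and the hypoxia response mostly had negative fold changes and those of the respiratory chain mostly positive ones. Of 20 glycolysis and hypoxia genes, 16 had a negative fold change with a median of -0.48, 5 were lower in every P0 sample and 5 passed DESeq2. For all genes the last 2 shares were 12.1% and 2.57%. Slc2a3, a glucose transporter, was at 27.9, 18.5 and 19.2 CPM at E18.5 and at 11.7, 12.6 and 13.4 CPM at P0 (log2 fold change -0.81, SE 0.20, DESeq2 adjusted p = 0.0208). Vegfa, the vascular growth factor, was at 226, 144 and 172 CPM and then at 92.7, 135 and 64.8 CPM (-0.90, SE 0.26, adjusted p = 0.0213). Gapdh was at 20.6, 12.5 and 15 CPM and then at 8.01, 9.64 and 7.75 CPM (-0.94, adjusted p = 0.0171), a level that is uncertain because the gene has many processed copies. These 3 passed without E18.5 replicate 3 too (0.0238, 0.0253 and 0.0114), and missed without P0 replicate 3 (0.123, 0.215 and 0.177) and without E18.5 replicate 1-2 (0.0767, 0.0737 and 0.0764). With either of those samples left out, DESeq2 passed 0 of the 20. E18.5 replicate 1-2, in which the stress genes stood apart, was also the highest sample for this list, with a median deviation of 0.54 from the genes' means against 0.14 and 0.01 in the other E18.5 samples. Its part in the result was not tested. Slc2a1 and Ldha overlapped between ages and passed DESeq2 with all samples (adjusted p = 0.0305 and 0.0472), and missed without E18.5 replicate 3 (0.0724 and 0.106), E18.5 replicate 1-2 (0.132 and 0.136) or P0 replicate 3 (0.295 and 0.358).

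Of 16 nuclear genes of the respiratory chain, 15 had a positive fold change with a median of 0.41 (0.36 without E18.5 replicate 3), 10 were higher in every P0 sample and 4 passed DESeq2, against 2 without E18.5 replicate 3 and 0 without P0 replicate 3. Among all genes 15.6% were higher in every P0 sample and 3.02% passed DESeq2 as higher. Ndufa4 was at 45.8, 42.3 and 45.9 CPM at E18.5 and at 67, 69.9 and 75.9 CPM at P0 (log2 fold change 0.65, SE 0.12, DESeq2 adjusted p = 0.00571, 0.0159 without E18.5 replicate 3 and 0.0728 without P0 replicate 3). Uqcrc1, of complex III, was at 155, 162 and 185 CPM and then at 235, 252 and 287 CPM (0.61, SE 0.14, adjusted p = 0.0133, 0.0334 and 0.144). Cyc1, cytochrome c1 of the same complex, was outside the list and chosen after its values were seen. It was at 82, 74 and 91.3 CPM and then at 127, 142 and 167 CPM (0.81, SE 0.15, adjusted p = 0.00151, 0.00874 and 0.0251). The samples of each age lay close together in all 3 genes. The share of counts from mitochondrially encoded genes, given above, was likewise higher in every P0 library, and its part in these results was not tested.

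**Figure D4:**
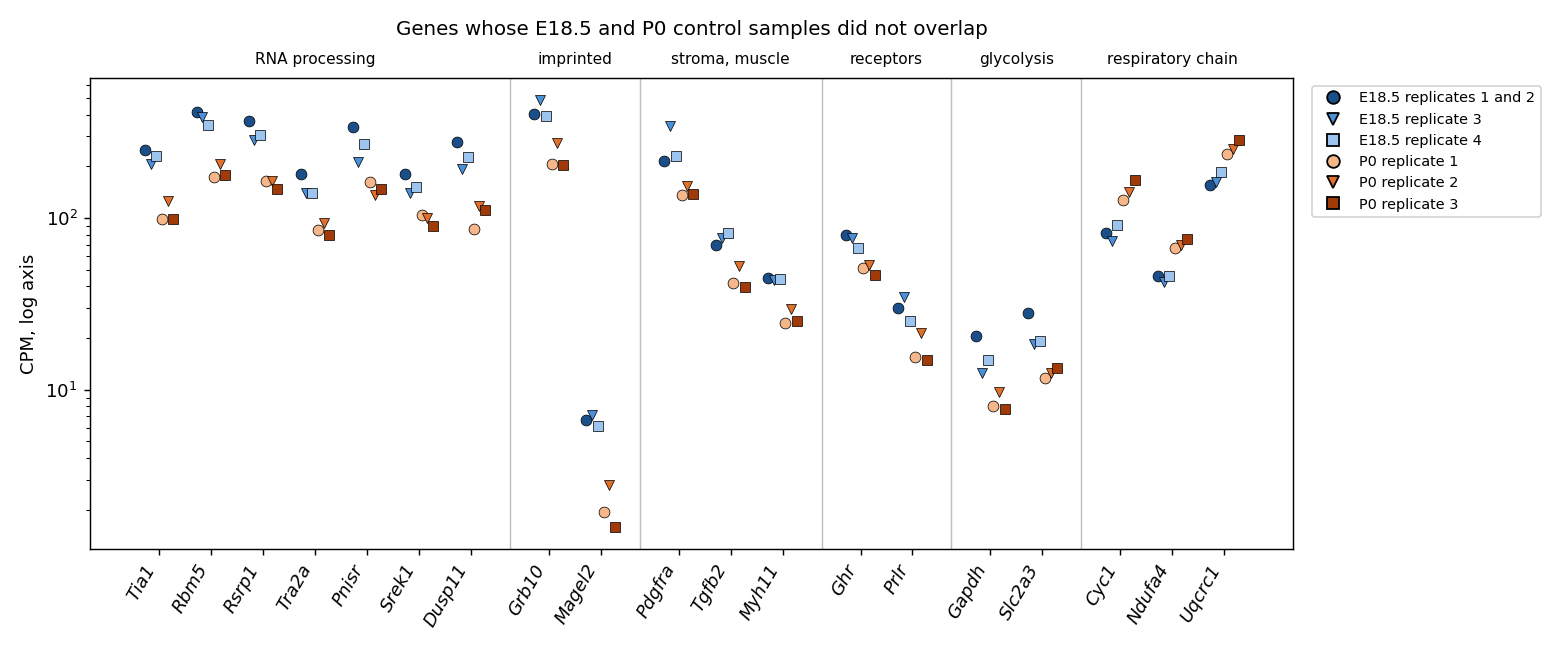
CPM on a log axis for 19 genes whose E18.5 samples (blue) and P0 samples (orange) did not overlap, with 1 point per control sample, grouped by function. The 3 respiratory chain genes were higher in every P0 sample and the 16 others lower in every P0 sample, with Tia1 at 207 to 250 CPM and then at 99 to 125 CPM.

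The smallest p-values among named genes belonged to regulators of RNA processing, which stood in no list and were chosen after their values were seen. Tia1, an RNA-binding protein of splicing and stress granules on chromosome 6, was at 250, 207 and 231 CPM at E18.5 and at 99, 125 and 99.3 CPM at P0. Rbm5, a splicing regulator on chromosome 9, was at 418, 388 and 350 CPM and then at 173, 207 and 178 CPM. Rsrp1, an arginine and serine rich protein, was at 369, 284 and 304 CPM and then at 165, 164 and 148 CPM. In each of the 3 the lowest E18.5 sample was well above the highest P0 sample.

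The log2 fold changes were -1.10 for Tia1 (SE 0.14), -1.07 for Rbm5 (SE 0.14) and -1.02 for Rsrp1 (SE 0.14). DESeq2 passed them with all samples (adjusted p = 5.78e-08, 5.22e-08 and 1.16e-07), without E18.5 replicate 3 (3.39e-07, 1.3e-06 and 3.02e-07) and without P0 replicate 3 (3.5e-05, 2.62e-05 and 5.37e-05). In edgeR their adjusted p was 0.143, from unadjusted values of 3.33e-05, 3.45e-05 and 4.77e-05. Dusp11, an RNA phosphatase, had -1.15, and Tra2a, Pnisr and Srek1, splicing factors or their relatives, had -0.85, -0.90 and -0.70. All 4 were lower in every P0 sample and passed DESeq2 (adjusted p = 1.71e-06, 0.000304, 0.000726 and 0.00179).

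A pair of non-coding RNAs that carry no poly(A) tail was higher in every P0 sample. Rpph1, the RNA of ribonuclease P, was at 10.1, 9.41 and 8.05 CPM at E18.5 and at 29.4, 36.7 and 22.6 CPM at P0 (log2 fold change 1.67, SE 0.23, DESeq2 adjusted p = 4.51e-07). Rn7sk, which restrains transcription elongation, was at 6.79, 15 and 6.81 CPM and then at 33.3, 48.9 and 22.3 CPM (1.88, SE 0.40, adjusted p = 0.000608). Both were chosen after their values were seen, and both were highest in P0 replicate 2, the library with the largest share of CT010467.1 (3.97%). The libraries were made from poly(A)-selected RNA, and the part of that selection in these values was not tested. A few other genes chosen in the same way were lower in every P0 sample: Hif3a at 98.9 to 155 CPM and then 36 to 76.8 CPM, Plk2 at 56.6 to 99.8 CPM and then 26.6 to 40.2 CPM, and Sox11 at 62.6 to 79.6 CPM and then 25.2 to 40.4 CPM (DESeq2 adjusted p = 0.00179, 0.000441 and 0.000608, of which Hif3a missed without P0 replicate 3 at 0.0637).

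Genes of cell division had a median of 0.05 over 22, with Top2a, the topoisomerase of dividing cells, lower in every P0 sample (222, 257 and 145 CPM, then 113, 97.6 and 140 CPM, DESeq2 adjusted p = 0.0194, 0.11 without E18.5 replicate 3). Mki67 was at 406, 448 and 291 CPM and then at 192, 171 and 357 CPM. Its overlap came from P0 replicate 3, and without that sample it passed DESeq2 (adjusted p = 0.00421). In the Notch pathway the ligand genes Jag1 and Jag2 were higher in every P0 sample, at 45.1 to 84.5 CPM and 289 to 312 CPM against 25.3 to 40.5 CPM and 47.4 to 214 CPM, and passed DESeq2 (adjusted p = 0.0145 and 0.026), while the list's median was -0.12 over 17 tested of 18. Both missed without P0 replicate 3 (DESeq2 adjusted p = 0.222 and 0.507), Jag1 also without E18.5 replicate 3 (0.067) and Jag2 without E18.5 replicate 1-2 (0.289). Among genes of the p53 family and cell death, with a median of 0.16 over 18, Trp63, which encodes the guardian of oocyte quality TAp63, was at 35, 0.991 and 58.5 CPM and then at 86, 119 and 171 CPM. It passed DESeq2 only without E18.5 replicate 3 (adjusted p = 0.0027, against 0.351). Perp passed with all samples (adjusted p = 0.0496) at 14.7 CPM or less, and missed without E18.5 replicate 3 (0.0728) or P0 replicate 3 (0.501).

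Few genes of the remaining lists passed DESeq2. The circadian clock list had a median of 0.11 over 14, with Nr1d1, a repressor of the clock, passing DESeq2 (8.59 to 18.8 CPM, then 28.5 to 38.7 CPM, adjusted p = 0.0168, 0.231 without P0 replicate 3). Cholesterol synthesis had 0.03 over 16, with Insig1 passing as higher (adjusted p = 0.0387, 0.333 without P0 replicate 3), and Sertoli markers had -0.14 over 8, with Tesc passing as higher (DESeq2 adjusted p = 0.0271, 0.105 without E18.5 replicate 3, 0.0968 without E18.5 replicate 1-2 and 0.343 without P0 replicate 3). TGF-beta and BMP response genes had -0.06 over 19, of which Tgfb2 passed. DESeq2 passed 0 genes of the lists of DNA methylation (median 0.16), steroid synthesis (-0.12), surface epithelium (0.33), mesonephric duct (0.02), nerve and Schwann cells (-0.41), adipocytes (-0.07), retinoic acid (-0.09) and interferon response (0.47). Of the 9 interferon response genes 4 were higher in every P0 sample, against 15.6% of all genes. Of the 11 surface epithelium markers 10 were positive and 4 were higher in every P0 sample. DESeq2 passed 3 of the 11 as higher without E18.5 replicate 1-2, against 4.68% of all genes. Bnc1, a zinc finger factor of epithelia, was at 45.9 to 53.5 CPM and then at 61.7 to 74.7 CPM (DESeq2 adjusted p = 0.084 with all samples). Crabp2, which carries retinoic acid in the cell, was lower in every P0 sample, at 1.61 to 2.52 CPM and then at 0.506 to 0.955 CPM.

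**Figure D5:**
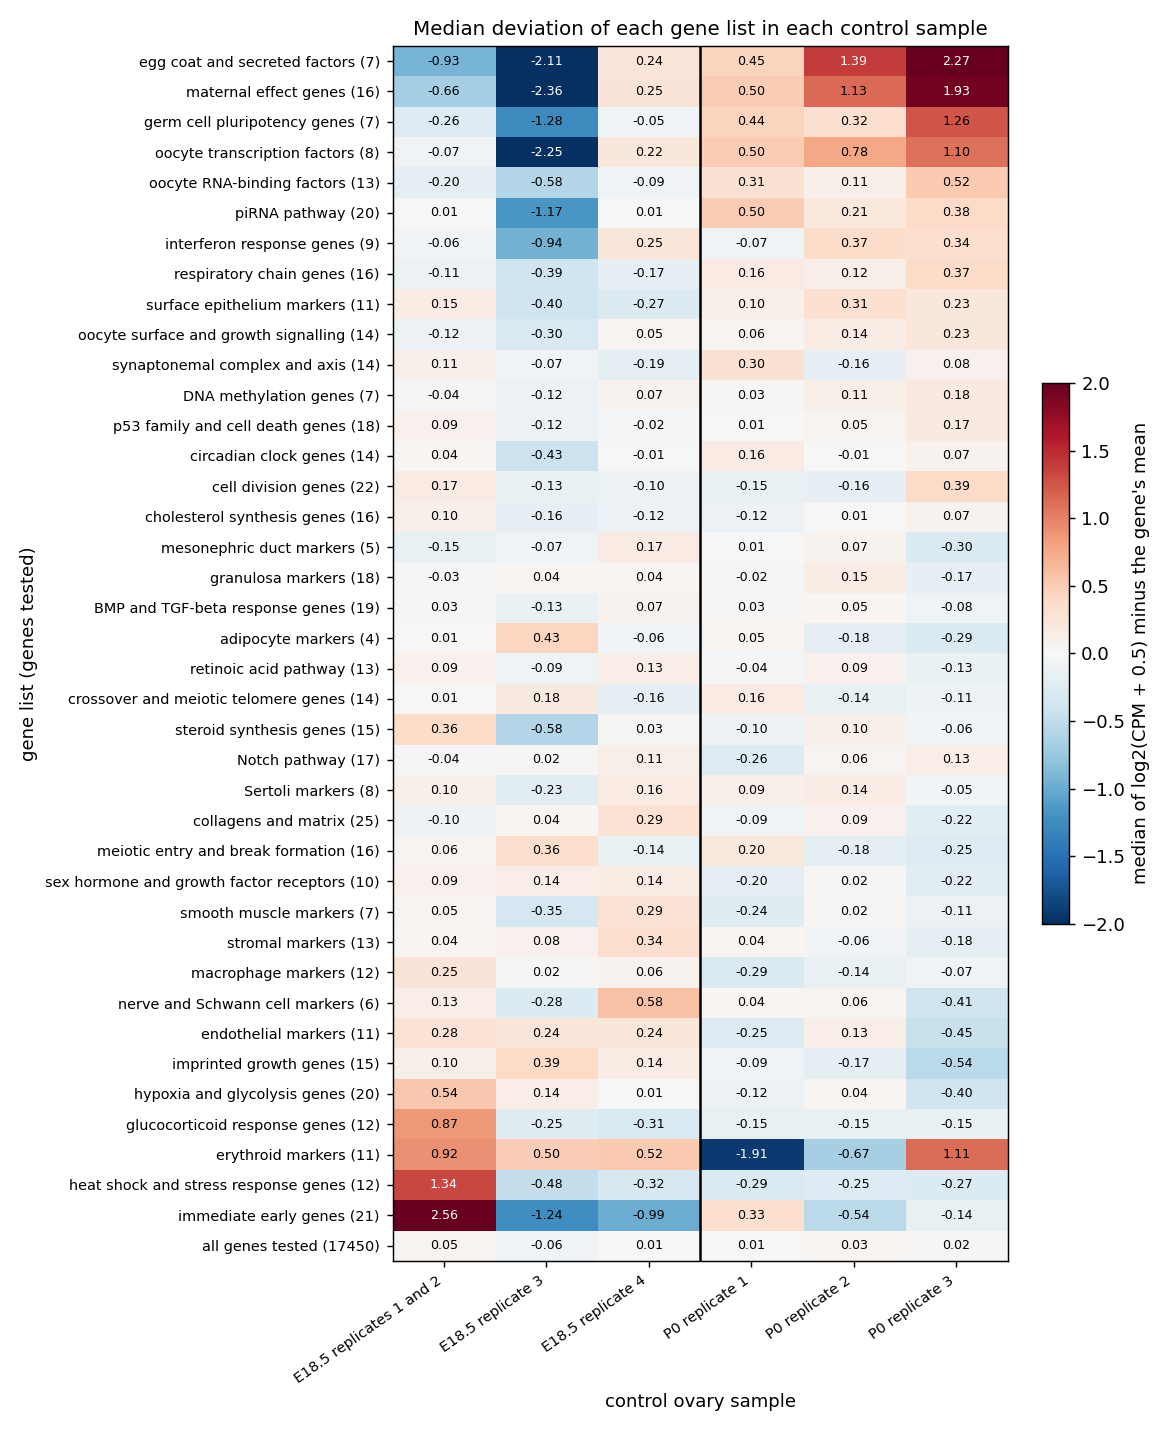
Heat map of gene lists and all genes tested (rows, with the number of genes tested) by control sample (columns). Each cell gives the median over the list of log2(CPM + 0.5) minus the gene's mean over the 6 samples. The oocyte lists were lowest in E18.5 replicate 3, and the immediate early and heat shock lists were highest in E18.5 replicate 1-2.

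The same age step was set beside that of the Figla knockouts, which shared no library with the controls. Even so, E18.5 knockout replicate 1-2 stood apart in stress genes as the control of that number did (values above). Knockout replicate 3 was the highest E18.5 knockout for Dmc1, at 23 CPM against 14.9 and 6.56 CPM. The part of such shared traits in the agreement of sign given below was not tested. Across 18379 genes, edgeR's test of the difference between both steps called 0 genes, and 977 passed an unadjusted p under 0.05 (5.32%). DESeq2 called 2 genes with the more positive change in controls and 1 with the more negative. In the knockouts alone edgeR called 0 of 17121 genes, and 2186 passed an unadjusted p under 0.05 (12.8%). Of the 465 genes that DESeq2 gave as higher at P0 in controls, 441 were tested in the knockouts, and 378 of these (85.7%) had a positive fold change there, as had 47.3% of all genes. Of the 395 lower, 381 (96.5%) were negative there, against 52.7% of all genes. The medians were 0.81 in controls and 0.26 in knockouts for the first set, and -0.85 and -0.48 for the second. Both sets were picked by their calls in the controls, which favours larger fold changes there. The medians therefore cannot show that the step was weaker in knockouts.

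For single genes, most of them named from their values in the controls, the steps were as follows. Tia1, Rbm5 and Rsrp1 had log2 fold changes of -0.80, -0.72 and -0.70 in the knockouts, against -1.10, -1.07 and -1.02 in the controls. Sohlh2 had 0.12 in the knockouts against 1.06 in controls, Gdf9 0.18 against 2.26 and Zbed3 0.01 against 1.02. Myh11 had -0.18 against -0.76, Tgfb2 -0.04 against -0.78 and Kitl -0.10 against -0.57. The difference between the steps passed edgeR's adjusted threshold for none of these 9 genes. Zp1, Zp2, Zp3, Nobox and Figla were too low in the knockouts to be tested there. The list medians in the knockouts were 0.29 for oocyte transcription factors (5 genes tested), 0.22 for maternal effect genes (4 genes), 0.13 for the respiratory chain, -0.36 for glycolysis and hypoxia and -0.16 for imprinted genes, against 1.15, 2.13, 0.41, -0.48 and -0.47 in controls. The control medians of the oocyte transcription factors and maternal effect genes were over 8 and 16 genes. For these lists the knockout and control medians are therefore not over the same genes. Many other lists had a knockout median at least as far from 0 as that of controls, or of the opposite sign. Among them were the piRNA pathway (0.65 against 0.59 in controls), red cell markers (-1.80 against -0.72), cell division (-0.78 against 0.05), endothelial markers (0.15 against -0.43) and stromal markers (0.18 against -0.33). Immediate early genes (-1.66 against -1.44), heat shock genes (-1.52 against -0.79) and collagens and matrix (0.19 against -0.16) were further examples. These differences between lists were not tested.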

How the data were processed

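Each deposited table holds whole-number counts for 1 library, which the authors made with featureCounts 1.6.0, the GENCODE M12 annotation and no use of strand, per the file headers. The submitters' processing notes name cutadapt, HISAT2 (no version of either in the sources used here) and the build GRCm38.p5. Poly(A) RNA went into a Nextera kit that keeps no strand, per the labels' protocols, so antisense reads were added to a gene's own.

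Libraries were grouped by library name. E18.5 replicates 1 and 2 (chi-square per degree of freedom 1.12, against 17.2 to 34.5 for other control pairs) were summed. A filter (filterByExpr, at least 10 counts and 15 in total) left the genes that edgeR 4.0.16 (R 4.3.3, TMM, quasi-likelihood test) was run on. DESeq2 1.42.0 and limma 3.58.1 were alternatives. The 6 Lhx8 libraries were not used here.

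The samples and the 40 gene lists (567 genes, 565 matched) were chosen with earlier results of these data known; 1 list is not reported here. The rule named the most changed genes called by edgeR (none), the 2 genes of each list with the smallest p, and a set of reference genes. Chosen after their values were seen were Foxo3, Taf4b, Ooep, Nlrp5, Padi6, Dppa3, Tcl1, Nlrp14, Nlrp4f, Lsm14b, Tdrd1, Tdrd5, Fkbp6, Pld6, Piwil2, Pou5f1, Prdm9, Msh5, Meioc, Ccdc36, Stra8, Fos, Egr1, Atf3, Slc4a1, Hbb-bs, Fst, Inha, Col1a1, Meg3, Plagl1, H19, Igf2, Vegfa, Slc2a1, Ldha, Mki67, Trp63 and the genes so marked in the text.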

Additional observations from a re-analysis of the deposited data

How the results depend on the processing

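The edgeR count of 0 genes higher and 0 lower at P0 held with RLE scaling, total count scaling, at least 1 CPM in at least 3 samples, all Figla samples in 1 model, the robust prior and limma with quality weights, and ranged from 0 to 0 in both directions when each control sample was left out. It did not hold in 4 other planned settings. DESeq2 gave 465 and 395. No low-count filter gave 843 and 637 of 35032 genes. E18.5 libraries 1 and 2 as separate samples gave 1 and 6. Keeping only control libraries whose labels agree, which leaves 1 E18.5 sample assumed to vary like the P0 samples, gave 467 and 508. DESeq2 without a sample, added after seeing the data, gave 557 and 521 (E18.5 replicate 1-2), 254 and 212 (E18.5 replicate 3), 700 and 307 (E18.5 replicate 4), 164 and 153 (P0 replicate 1), 269 and 367 (P0 replicate 2) and 26 and 110 (P0 replicate 3). The cause of these differences was not tested.

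The difference between controls and knockouts kept 0 genes in each direction, also over all samples left out (0 to 0), except in DESeq2 (2 with the more positive change in controls, 1 with the more negative) and with no low-count filter (58 and 5). Of 143 named genes, 131 kept their sign in every setting, 59 passed DESeq2 and 22 passed in none. The sign turned with only agreeing labels for Lpl (-0.06), Nr2f2 (0.03), Meioc (0.22), Prdm9 (0.03), Col1a1 (1.56), Ccdc36 (0.50), Igf2 (0.25) and H19 (0.03). With each sample left out in turn the log2 fold change ranged from -2.68 to 3.67 for Fos, -1.12 to 2.30 for Egr1, -3.70 to 1.42 for Atf3, -1.90 to 0.06 for Meioc, -1.44 to 0.45 for Ccdc36, -0.81 to 0.05 for Col1a1 and -1.32 to 0.05 for Hbb-bs. The positive values came without E18.5 replicate 1-2 for Fos, Egr1 and Atf3 (DESeq2 3.68, 2.31 and 1.43), without E18.5 replicate 3 for Meioc and Ccdc36 (DESeq2 0.05 and 0.44), without E18.5 replicate 4 for Col1a1 (DESeq2 0.05) and without P0 replicate 1 for Hbb-bs (DESeq2 0.06), where Lpl came to 0.00 in DESeq2. With limma Fos was at 1.52 and Egr1 at 1.19. No paired analysis was possible because the library names carry serial numbers that pair no samples across ages, and the numbers in the titles belong to groups that the library names contradict. Depth limits low genes such as Zp1 and Zp2: 0 counts in E18.5 replicate 3 allow up to 0.495 CPM, a limit for counting error only.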
